A study of Mus musculus with 15 samples.

Results

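Wnt ligands, their Frizzled receptors and the secreted and membrane proteins that tune them were examined in the suprachiasmatic nuclei (SCN) of mice without the nuclear receptors REV-ERB alpha and beta, repressors in the circadian clock. Members were all genes of the deposited table named as a Wnt, Fzd, Sfrp, Dkk, Lgr or Rspo gene with a number, together with Lrp5, Lrp6, Axin1, Axin2, Lef1, Tcf7, Tcf7l1, Tcf7l2, Ctnnb1, Znrf3, Rnf43, Wif1 and Frzb. A member also needed a mean CPM (the count as a share of the library total, in the usual CPM scale) of at least 0.5 over the 15 libraries. The name rule was met by 57 of the 24419 genes deposited, and 46 of these passed the level. They were 10 ligands, 12 receptors and co-receptors, 9 R-spondins with their receptors and ubiquitin ligases, 8 secreted modulators and 7 intracellular members. Just inside the level stood Rspo2, Rspo4 and Wnt8b with 0.578, 0.758 and 0.799 CPM. Just outside it stood Wnt6, Wnt10b and Wnt1 with 0.442, 0.311 and 0.249 CPM, and Wnt10a, Wnt2, Wnt16, Wnt8a, Wnt9b, Wnt3a, Dkk1 and Dkk4 were lower still.

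Wnt proteins are secreted lipid-modified signals that bind Frizzled receptors, with Lrp5 or Lrp6 as co-receptors for the branch that stabilises beta-catenin, the product of Ctnnb1. R-spondins bind Lgr receptors and draw the ubiquitin ligases Znrf3 and Rnf43 away from Frizzleds, which raises receptor levels. Sfrp proteins, Frzb and Wif1 bind Wnts, and some Dkk proteins, Dkk2 among them, bind the co-receptors. In the brain, Wnt7a and Wnt7b from neural cells signal to the endothelium through Frizzleds, Fzd4 among them, in the formation and upkeep of the blood-brain barrier.

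Total RNA was sequenced from punches of the SCN, the hypothalamic pacemaker of circadian rhythms. All mice were C57BL/6 and 8 to 12 weeks old, and each library came from a pool of 2 to 4 punches. The groups were double knockout mice (DKO; both REV-ERB genes) at circadian time (CT) 16, with 4 libraries, controls at CT16, with 5, DKO mice at CT4, with 3, and controls at CT4, with 3. CT4 lies in the subjective day and CT16 in the subjective night. The labels used here give neither the driver of the deletion nor the cells in which it took place. They also do not say which mice entered a pool, so a p-value here reflects how far pools differ from each other.

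Total counts were 32580803 to 68757624 per library. Since a count covers every exon of its gene, it gives no check of the genotype. Nr1d1, which encodes REV-ERB alpha, had 241 to 378 CPM in DKO and 135 to 150 CPM in control libraries at CT16, and 226 to 252 CPM in DKO and 198 to 282 CPM in control libraries at CT4. Nr1d2, which encodes REV-ERB beta, had 198 to 259 CPM in DKO and 96.7 to 118 CPM in control libraries at CT16, and 163 to 181 CPM in DKO and 116 to 130 CPM in control libraries at CT4. Of 15 SCN genes, among them Six6, Vip and Avp, the summed level was 854 to 1397 CPM in DKO and 598 to 1225 CPM in control libraries at CT16, and 923 to 956 CPM in DKO and 1148 to 1260 CPM in control libraries at CT4. A marker score, the mean over a list of log2 CPM centred per gene, was computed for cells and nuclei that a punch could hold. For 18 genes of neighbouring hypothalamic nuclei, such as Oxt, Pmch and Trh, it was -1.33 to 0.872 in DKO and -0.645 to 0.854 in control libraries at CT16, and 0.593 to 1.05 in DKO and -0.912 to 0.647 in control libraries at CT4. Their summed level was 416 to 745 CPM in DKO and 693 to 1053 CPM in control libraries at CT16, and 796 to 913 CPM in DKO and 429 to 776 CPM in control libraries at CT4. The 12 myelin genes summed to 3892 to 19996 CPM in DKO and 2967 to 9724 CPM in control libraries at CT16, and 6297 to 7134 CPM in DKO and 5513 to 7921 CPM in control libraries at CT4. Within their groups, DKO CT16 replicate 3 (0.872), control CT16 replicate 5 (0.854) and control CT4 replicate 1 (0.647) had the highest score for neighbouring nuclei, and DKO CT16 replicate 4 had the highest score for myelin (1.6). Of the genes in these lists only Kiss1 was at 0 in any library. Results were therefore also computed without 3 of the libraries named (control CT4 replicate 1 with DKO CT16 replicates 3 and 4), called the 3-library exclusion below. The score for neighbouring nuclei was -0.774 and -1.33 in the DKO CT16 libraries left and -0.912 and -0.547 in the control CT4 libraries left. It was 0.593 to 1.05 in DKO CT4, and control CT16 replicate 5 was kept. Under this exclusion the score thus did not overlap between genotypes at CT4 or between times in DKO mice. Nor did it overlap between genotypes at CT16, where the control libraries had -0.645 to 0.854. In these comparisons a difference cannot be told apart from one in the content of the punches. The same holds for a change of the genotype difference with time.

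**Figure D1:**
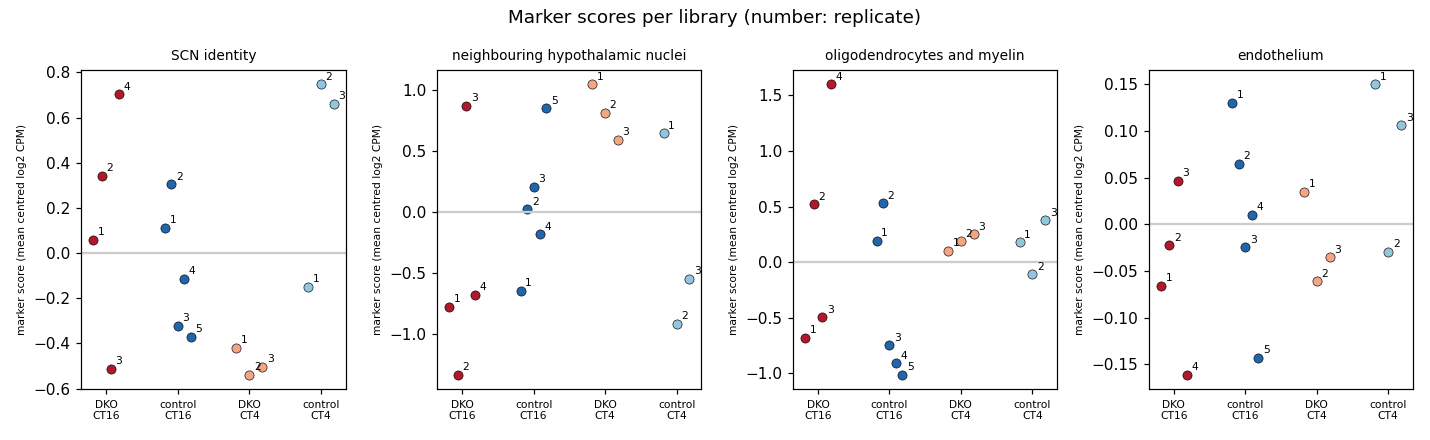
Marker scores (mean centred log2 CPM) of SCN identity, neighbouring hypothalamic nuclei, myelin and endothelium, with 1 point per library, the replicate number beside it and the groups along the x axis. The score for neighbouring nuclei lay at or above 0.593 in all 3 DKO CT4 libraries and in 1 library of each other group, and the endothelium score stayed between -0.161 and 0.15.

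Each level per length below is the mean CPM over the libraries divided by the exonic length in kilobases. Beta-catenin (Ctnnb1) was the most abundant member at 163 CPM per kb. The secreted modulator Dkk3 followed at 23.9 CPM per kb and the Wnt antagonist Sfrp5 at 11.3. Among receptors the highest levels were those of Fzd3 (10.3 CPM per kb) and the co-receptor Lrp6 (7.65). Among ligands they were those of Wnt7b (5.78 CPM per kb), Wnt5a (3.73), Wnt4 (3.40) and Wnt7a (3.21). Rspo1 had 9.70 and its receptor Lgr4 5.32 CPM per kb. Wnt8b and Dkk2 had 0.236 CPM per kb each and Rspo2 the lowest level with 0.173.

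**Figure D2:**
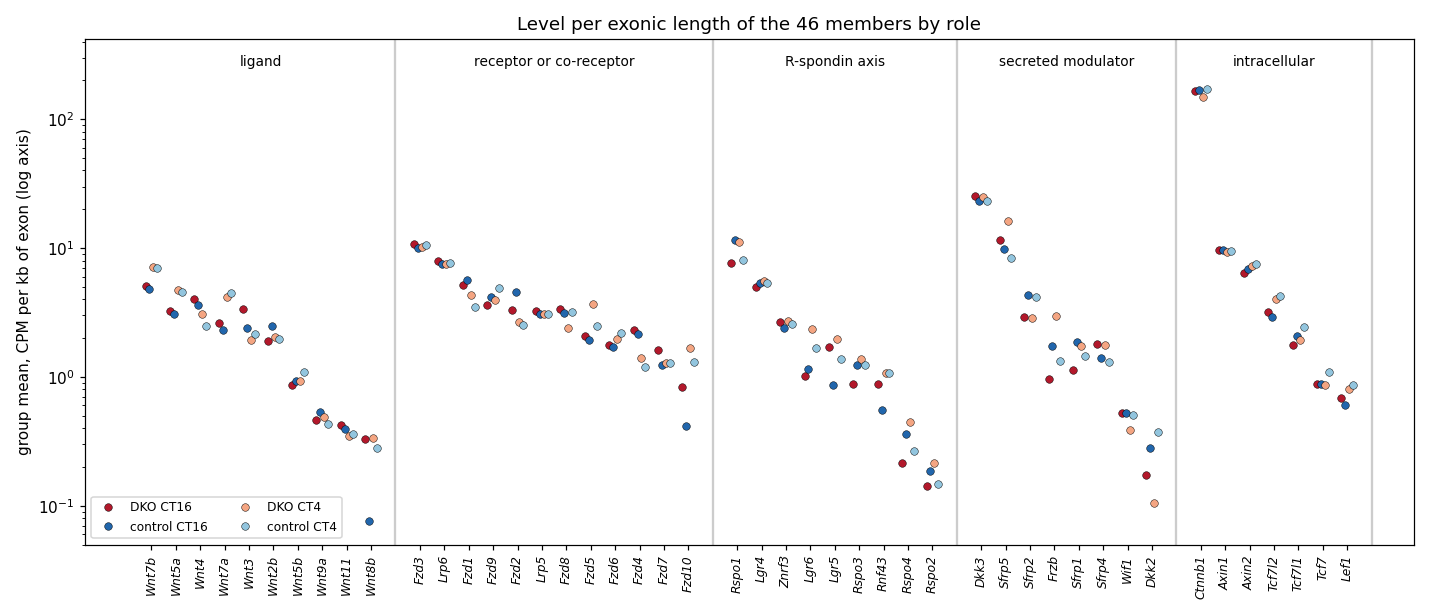
Group means of the 46 members in CPM per kb of exon (log axis), ordered by role and level, with 1 point for each of the 4 groups. Ctnnb1 stands highest at a mean of 163 CPM per kb, and Wnt8b in control libraries at CT16 stands well below its other groups.

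Differences are log2 fold changes ± standard error from an edgeR quasi-likelihood test over 16910 genes, and calls needed a p under 0.05 after Benjamini-Hochberg adjustment over all of them. Between times (CT16 over CT4), 6 of 46 members were called in controls (13%), against 4.21% of all genes. Fzd4 and Fzd1 were higher and Wnt7a, Wnt7b, Wnt8b and Fzd10 lower at CT16. In DKO mice 4 of 46 were called between times (8.7%), against 1.8% of all genes: Fzd4 was higher and Wnt7a, Wnt7b and Lgr6 lower at CT16. Between genotypes (DKO over control), 3 of 46 members were called at CT16 (6.52%), against 4.66% of all genes. Wnt8b and Lgr5 were higher and Sfrp1 lower in DKO mice. At CT4 only Dkk2 was called between genotypes, with a lower level in DKO mice (2.17% of members), against 1.28% of all genes. The share of members called was thus close to that of all genes between genotypes. The members whose libraries did not overlap between genotypes were 2 at CT16 (4.35%), against 6.97% of all genes, and 11 at CT4 (23.9%), against 25.4% of all genes. Between times they were 13 in DKO mice (28.3%), against 14.7% of all genes, and 10 in controls (21.7%), against 15.8% of all genes.

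For the interaction, which tests whether the genotype difference at CT16 departs from that at CT4, edgeR's quasi-likelihood test called 0 of 46 members, against 0.0118% of all genes. At an unadjusted p under 0.05 it gave 10 members (21.7%), against 15.1% of all genes, and DESeq2 called 2, Rspo1 and Sfrp1. The comparisons share libraries, so a control CT16 library enters both the genotype comparison at CT16 and the time comparison in controls. The median log2 fold change of the members lay near that of all genes in each comparison. It was 0.06 against 0.00 between genotypes at CT16, 0.03 against -0.00 between genotypes at CT4, -0.10 against 0.01 between times in DKO mice and -0.02 against -0.01 between times in controls. In bulk tissue, fewer cells of a type and less RNA per cell cannot be told apart, which holds for every difference below.

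**Figure D3:**
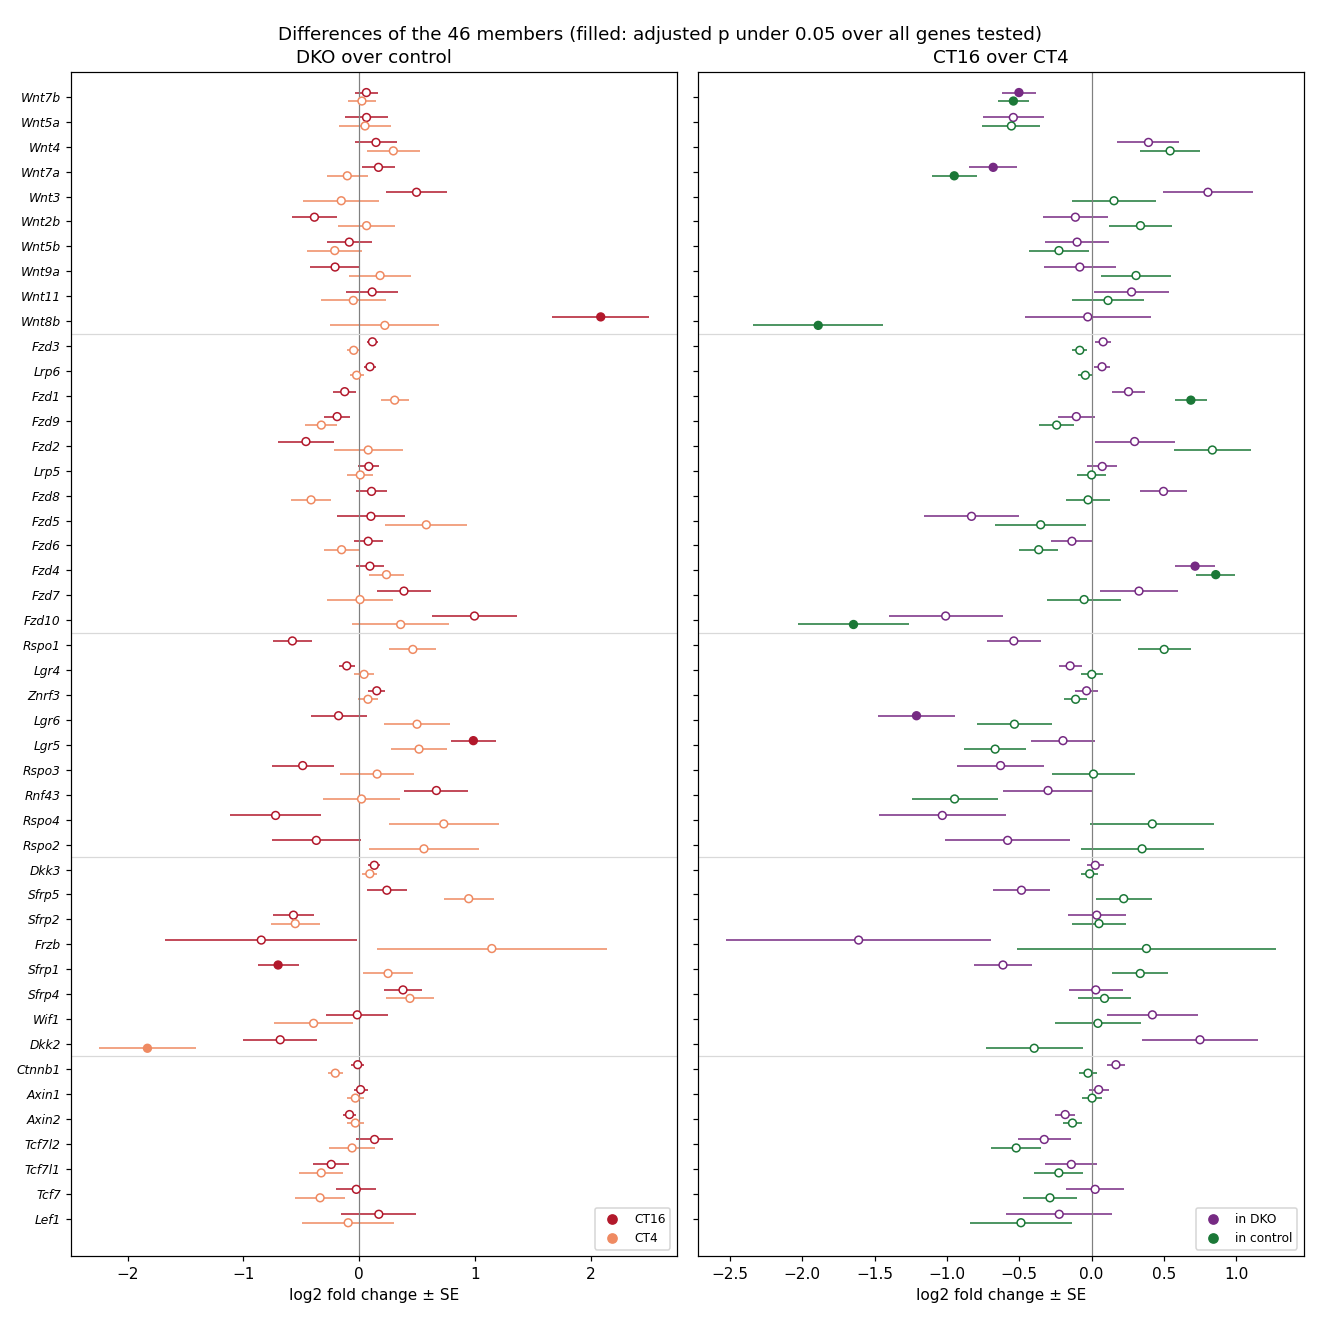
Log2 fold changes ± SE of the 46 members, DKO over control on the left (CT16 and CT4) and CT16 over CT4 on the right (DKO and control), with filled points for an adjusted p under 0.05. Between times, the filled points of Fzd4 lie right of 0 (0.86 in controls) and those of Wnt7a (-0.95 in controls) and Wnt7b left of 0 in both genotypes, and Wnt8b is the filled point farthest from 0 between genotypes (2.08 at CT16).

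Among the ligands, Wnt7a and Wnt7b fell at CT16 in both genotypes. The Wnt7a gene lies at chr6:91363983-91411369 on the minus strand and Wnt7b at chr15:85535437-85581821 on the minus strand (mm10). Wnt7a had 8.03, 6.48, 10.4 and 8.25 CPM in the DKO CT16 libraries, 5.65, 8.31, 9.27, 5.94 and 7.73 CPM in the control CT16 libraries, 12.4, 13.5 and 13.9 CPM in the DKO CT4 libraries and 15.2, 12.9 and 14.7 CPM in the control CT4 libraries. All 9 libraries at CT16 were below all 6 at CT4. For CT16 over CT4, Wnt7a had a log2 fold change of -0.68 ± 0.16 in DKO mice and -0.95 ± 0.16 in controls (edgeR quasi-likelihood test, adjusted p = 0.0456 and 0.003).

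Wnt7b had 18.01, 20.2, 25.3 and 25.4 CPM in the DKO CT16 libraries, 20.1, 21.5, 24.1, 22.1 and 18.6 CPM in the control CT16 libraries, 28.5, 35.1 and 30.8 CPM in the DKO CT4 libraries and 30.7, 30.2 and 32.0 CPM in the control CT4 libraries. Here too the libraries at CT16 and CT4 did not overlap. Its log2 fold change for CT16 over CT4 was -0.50 ± 0.11 in DKO mice and -0.54 ± 0.11 in controls (edgeR quasi-likelihood test, adjusted p = 0.0342 and 0.0108). The time difference did not depend detectably on genotype for Wnt7a (interaction 0.27 ± 0.23, adjusted p = 0.587) or Wnt7b (0.04 ± 0.16, adjusted p = 0.93). Exons of Wnt7b overlap AU022754 on the opposite strand, which averaged 1.40 CPM, and the strand setting of the counting is not given in the sources used here, so their reads cannot be told apart.

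The call of Wnt7a in controls held in all 25 other settings tried. In DKO mice the Wnt7a call was lost in 14, among them with DKO CT16 replicate 1, 2 or 4, control CT16 replicate 5 or any of the 6 CT4 libraries left out, where the log2 fold change was -0.73 to -0.58 (edgeR quasi-likelihood test, adjusted p = 0.0532 to 0.159). The Wnt7b call in DKO mice was lost without DKO CT16 replicate 1 or 2, DKO CT4 replicate 2 or 3 or control CT4 replicate 3 (-0.52 to -0.42, adjusted p = 0.0527 to 0.184), and in controls without control CT4 replicate 3 (-0.52, adjusted p = 0.0525). With the scores for myelin and neighbouring nuclei as covariates, the log2 fold change in DKO mice was -0.37 ± 0.16 for Wnt7a (adjusted p = 0.333) and -0.38 ± 0.13 for Wnt7b (adjusted p = 0.203). Under the 3-library exclusion, it was -0.87 ± 0.19 for Wnt7a (adjusted p = 0.0112) and -0.72 ± 0.11 for Wnt7b (adjusted p = 0.00154).

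Wnt8b, a ligand known from the developing forebrain, differed at CT16, where it was higher in DKO mice. It had 0.603, 1.03, 1.14 and 1.68 CPM in the DKO CT16 libraries, 0.248, 0.327, 0.143, 0.468 and 0.0878 CPM in the control CT16 libraries, 1.17, 0.987 and 1.22 CPM in the DKO CT4 libraries and 1.12, 1.27 and 0.464 CPM in the control CT4 libraries. All 4 DKO libraries were above all 5 control libraries at CT16, while the genotypes overlapped at CT4. These levels rest on 4 to 79 counts per library. DKO over control gave a log2 fold change of 2.08 ± 0.42 at CT16 and 0.22 ± 0.47 at CT4 (edgeR quasi-likelihood test, adjusted p = 0.00773 and 0.879). CT16 over CT4 gave -0.03 ± 0.43 in DKO mice and -1.89 ± 0.45 in controls (adjusted p = 0.979 and 0.0256). The interaction was 1.86 ± 0.63 (adjusted p = 0.194), so a genotype difference that changes with time was not called. The call at CT16 was lost under the 3-library exclusion, where the value was 1.64 ± 0.50 (adjusted p = 0.107). The call between times in controls was lost without control CT16 replicate 1, 3 or 5 or control CT4 replicate 1 or 2 (-1.88 to -1.63, adjusted p = 0.0509 to 0.128).

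The other 7 ligands were not called in any comparison with all libraries. Wnt5a, which signals largely without beta-catenin, had 9.12 to 20.2 CPM in DKO and 11.8 to 17.5 CPM in control libraries at CT16, and 17.2 to 23.8 CPM in DKO and 19.5 to 19.99 CPM in control libraries at CT4. Its log2 fold change between times was -0.54 in DKO mice and -0.55 in controls (edgeR quasi-likelihood test, adjusted p = 0.193 and 0.139). The value in DKO mice was called under the 3-library exclusion, at -0.94 ± 0.18, against -0.56 ± 0.16 in controls (adjusted p = 0.00805 and 0.0668). Wnt4 had 0.39 in DKO mice and 0.54 in controls (adjusted p = 0.346 and 0.162). For Wnt2b, Wnt3, Wnt5b, Wnt9a and Wnt11 the smallest adjusted p over all comparisons was that of Wnt3 between times in DKO mice, with a log2 fold change of 0.80 (adjusted p = 0.187).

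Among the receptors, Fzd4 rose at CT16 in both genotypes. Fzd4 binds Wnts and the non-Wnt ligand Norrin, and its gene lies at chr7:89404366-89410110 on the plus strand (mm10). It had 7.67, 8.35, 9.72 and 8.30 CPM in the DKO CT16 libraries, 8.75, 8.93, 7.40, 6.83 and 8.04 CPM in the control CT16 libraries, 5.69, 4.52 and 5.33 CPM in the DKO CT4 libraries and 4.20, 5.18 and 3.80 CPM in the control CT4 libraries. All 9 libraries at CT16 were above all 6 at CT4. The log2 fold change for CT16 over CT4 was 0.72 ± 0.14 in DKO mice and 0.86 ± 0.13 in controls (edgeR quasi-likelihood test, adjusted p = 0.0124 and 0.00227), and the interaction was -0.14 ± 0.19 (adjusted p = 0.735). Fzd4 and Wnt7a thus moved in opposite directions between the same libraries. The Fzd4 call in controls held in all 25 other settings, and that in DKO mice was lost with the 2 groups fitted alone (0.71, adjusted p = 0.077) and without DKO CT4 replicate 2 or 3 (0.62 to 0.73, adjusted p = 0.0595 to 0.101).

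The stretch of 250 bases before RefSeq's start of Wnt7a and of Fzd4 is given here because both members were called between times in both genotypes, in opposite directions. The sequences are RefSeq's (GRCm38.p6), run 5′ to 3′ on the strand of the gene, and have each CG dinucleotide in capitals. Wnt7a is shown at chr6:91411354-91411603 (minus strand) and Fzd4 at chr7:89404116-89404365 (plus strand). RefSeq's start of Wnt7a lies inside the gene as the deposited table gives it, so the last bases of the Wnt7a stretch fall within that gene.
Wnt7a: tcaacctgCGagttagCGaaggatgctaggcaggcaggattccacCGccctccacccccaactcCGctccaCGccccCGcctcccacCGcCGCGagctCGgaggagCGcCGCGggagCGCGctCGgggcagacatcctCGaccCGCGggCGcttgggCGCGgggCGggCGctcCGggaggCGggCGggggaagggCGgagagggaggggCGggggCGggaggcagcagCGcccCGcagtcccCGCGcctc
Fzd4: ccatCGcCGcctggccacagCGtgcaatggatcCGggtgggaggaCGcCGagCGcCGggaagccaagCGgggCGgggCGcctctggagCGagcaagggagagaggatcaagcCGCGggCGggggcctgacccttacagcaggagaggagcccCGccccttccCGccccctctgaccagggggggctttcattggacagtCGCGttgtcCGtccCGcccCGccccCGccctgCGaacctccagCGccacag
The Wnt7a stretch held 34 CG dinucleotides at 77.6% GC and that of Fzd4 held 25 at 72.8% GC, against medians of 6 and 52.4% over 32851 RefSeq promoters. In windows of 300 bases (250 before to 50 after the start), 30 of the 46 members had 40 windows. Both strands were searched for AGGTCA, the core of ROR and REV-ERB sites. Also searched were its longer form TAGGTCA, the E-box known as CACGTG and the TCF/LEF motif in its form CTTTGAA or its other form CTTTGAT. This core was in 2 of the 40 windows (Frzb and Tcf7) and in 16.3% of all promoters. The longer form was in 0 of 40 windows and in 2.61% of all promoters, and the E-box in 5 of 40 and in 7.15%. The TCF/LEF motif was in 0 of 40 and in 5.14% in the form named first, and in 2 of 40 and in 3.73% in the other. Of the 10 members called in any comparison 7 had a window, and these windows held 0 matches to the 5 motifs.

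Fzd1 rose at CT16 in controls. It had 22.6, 22.3, 24.9 and 20.1 CPM in the DKO CT16 libraries, 24.2, 27.5, 22.7, 23.3 and 25.0 CPM in the control CT16 libraries, 18.9, 18.9 and 18.7 CPM in the DKO CT4 libraries and 17.7, 11.7 and 16.3 CPM in the control CT4 libraries. The 2 times did not overlap within either genotype. The log2 fold change for CT16 over CT4 was 0.26 ± 0.11 in DKO mice and 0.69 ± 0.11 in controls (edgeR quasi-likelihood test, adjusted p = 0.24 and 0.00266), and the interaction, -0.43 ± 0.16, was not called (adjusted p = 0.221). The call in controls held in all 25 other settings.

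Fzd10, a Frizzled of low level here, fell at CT16 in controls. It had 1.31, 1.65, 2.77 and 4.25 CPM in the DKO CT16 libraries, 1.30, 2.08, 1.00, 0.529 and 1.27 CPM in the control CT16 libraries, 4.52, 5.95 and 4.47 CPM in the DKO CT4 libraries and 4.49, 2.84 and 4.35 CPM in the control CT4 libraries. The libraries at the 2 times did not overlap within either genotype. CT16 over CT4 gave -1.01 ± 0.39 in DKO mice and -1.65 ± 0.38 in controls (edgeR quasi-likelihood test, adjusted p = 0.191 and 0.027). The call was lost without control CT16 replicate 1, 3 or 5 or any of the 3 control CT4 libraries (-1.83 to -1.53, adjusted p = 0.0519 to 0.105). Within the DKO CT16 group the highest value, 4.25 CPM, was that of replicate 4, the library with the highest myelin score. With the myelin and neighbouring nuclei scores as covariates, DKO over control at CT16 was 0.76 ± 0.20 and was called (adjusted p = 0.0232), against 0.99 ± 0.36 without them (adjusted p = 0.142), and DESeq2 called it at 1.00 ± 0.35 (adjusted p = 0.0498). Between times in DKO mice the value was -0.47 ± 0.24 with these covariates (adjusted p = 0.454), and under the 3-library exclusion it was -1.75 ± 0.40 and was called (adjusted p = 0.0184).

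Of the other 9 receptors and co-receptors 0 were called in any comparison with all libraries. Fzd3 and Lrp6, the most abundant, stayed between 121 and 147 CPM and between 67.4 and 82.4 CPM over all 15 libraries. Fzd2 had a log2 fold change between times of 0.30 in DKO mice and 0.83 in controls (edgeR quasi-likelihood test, adjusted p = 0.603 and 0.101), and its 20.3 CPM in DKO CT16 replicate 3 stood above the 8.30 to 10.3 CPM of the other DKO libraries at that time. Under the 3-library exclusion, Fzd2 was called between genotypes at CT16 (-0.79 ± 0.16, adjusted p = 0.0151) and between times in controls (0.96 ± 0.17, adjusted p = 0.00637). Fzd8 was then called between genotypes at CT4 (-0.57 ± 0.14, adjusted p = 0.0338), against -0.42 with all libraries (adjusted p = 0.258), and between times in DKO mice (0.67 ± 0.14, adjusted p = 0.00885).

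Lgr5 encodes an R-spondin receptor known as a marker of epithelial stem cells and was higher in DKO mice at CT16. It had 5.86, 7.53, 11.2 and 7.75 CPM in the DKO CT16 libraries, 3.63, 5.91, 3.53, 4.33 and 2.96 CPM in the control CT16 libraries, 8.28, 9.54 and 10.0 CPM in the DKO CT4 libraries and 6.83, 5.38 and 7.28 CPM in the control CT4 libraries. At CT16 the lowest DKO library (5.86 CPM) lay just under the highest control library (5.91 CPM), and at CT4 the genotypes did not overlap. The log2 fold change of DKO over control was 0.98 ± 0.20 at CT16 and 0.52 ± 0.24 at CT4 (edgeR quasi-likelihood test, adjusted p = 0.00803 and 0.328), and the interaction was 0.47 ± 0.31 (adjusted p = 0.482). The highest value at CT16 was that of DKO replicate 3, which also had the highest neighbouring nuclei score of its group. Under the 3-library exclusion the value was 0.71 ± 0.21 and not called (adjusted p = 0.107), and no single library left out ended the call.

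Lgr6, a further R-spondin receptor, fell at CT16 in DKO mice. It had 2.95, 3.35, 4.91 and 3.56 CPM in the DKO CT16 libraries, 3.38, 3.44, 3.34, 4.01 and 6.72 CPM in the control CT16 libraries, 7.29, 8.53 and 9.89 CPM in the DKO CT4 libraries and 8.58, 4.46 and 5.11 CPM in the control CT4 libraries. DKO libraries at the 2 times did not overlap, whereas control libraries did. CT16 over CT4 gave -1.21 ± 0.27 in DKO mice and -0.53 ± 0.26 in controls (edgeR quasi-likelihood test, adjusted p = 0.0312 and 0.264), with an interaction of -0.68 ± 0.38 (adjusted p = 0.409). The highest control library at each time, 6.72 CPM in CT16 replicate 5 and 8.58 CPM in CT4 replicate 1, was also the one with the highest score for neighbouring nuclei, and all 3 DKO CT4 libraries had high scores. Within DKO CT4 the highest Lgr6 value was in replicate 3, the library with the lowest score of the group. With that score and the myelin score as covariates the value in DKO mice was -0.68 ± 0.23 and was not called (edgeR quasi-likelihood test, adjusted p = 0.191). In controls it was then -0.64 ± 0.18 and was called (adjusted p = 0.0367), so the fall was not particular to DKO mice in that fit. The part of these scores in Lgr6 was not tested. The call in DKO mice was also lost without DKO CT16 replicate 1, 2 or 4 or any DKO CT4 library (-1.31 to -1.10, adjusted p = 0.0575 to 0.134).

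Rspo1, the most abundant R-spondin, had 18.2, 11.2, 17.2 and 9.51 CPM in the DKO CT16 libraries, 21.8, 16.5, 20.1, 21.9 and 24.6 CPM in the control CT16 libraries, 20.9, 18.9 and 21.4 CPM in the DKO CT4 libraries and 15.6, 13.8 and 15 CPM in the control CT4 libraries. At CT4 all DKO libraries were above all control libraries, and at CT16 the DKO libraries were mostly below the controls with some overlap. DKO over control was -0.58 ± 0.17 at CT16 and 0.46 ± 0.20 at CT4 (edgeR quasi-likelihood test, adjusted p = 0.0666 and 0.302), and the interaction was -1.04 ± 0.26 (adjusted p = 0.134). With all libraries, edgeR called neither difference nor the interaction. DESeq2 called the difference at CT16 (-0.58 ± 0.16, adjusted p = 0.00841) and the interaction (-1.05 ± 0.26, adjusted p = 0.00868). Calls by edgeR appeared at CT16 with the myelin and nuclei scores as covariates (-0.39 ± 0.10, adjusted p = 0.0177) and without DKO CT16 replicate 1 or 3 or control CT16 replicate 2 (-0.73 to -0.65, adjusted p = 0.0166 to 0.0346). The interaction was called without DKO CT16 replicate 3 (-1.15 ± 0.26, adjusted p = 0.045), and the difference at CT4 with these 2 groups fitted alone (0.46 ± 0.09, adjusted p = 0.0104).

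This axis had 9 members (Rspo1, Rspo2, Rspo3, Rspo4, Lgr4, Lgr5, Lgr6, Znrf3 and Rnf43). Their log2 fold change of DKO over control was above 0 for 3 at CT16 (median -0.18) and for 9 at CT4 (median 0.46). Of all genes 50.4% and 49.5% were above 0. In the other roles, 6 of 10 ligands and 7 of 12 receptors and co-receptors were above 0 at CT4. So were 5 of 8 secreted modulators and 0 of 7 intracellular members. Between times the change in the R-spondin axis was below 0 for 9 of 9 in DKO mice (median -0.54) and for 4 of 9 in controls (median 0.00). Among them edgeR's quasi-likelihood test with all libraries called Lgr5 at CT16 and Lgr6 between times in DKO mice. DESeq2 called more, among them Rspo1 as above and Lgr5 between times in controls (-0.67 ± 0.22, adjusted p = 0.0368). Without DKO CT4 replicate 2 the median between genotypes at CT4 was 0.12, with 8 of 9 above 0. That between times in DKO mice was then -0.29, with 8 of 9 below 0. Without DKO CT4 replicate 3, 7 of 9 were above 0 between genotypes at CT4 (median 0.39). With control CT4 replicate 1, 2 or 3 left out, 8 of 9 were above 0 in that comparison (medians 0.50, 0.32 and 0.39). Without DKO CT16 replicate 3 the median at CT16 was -0.35. Over the 7 members with a mean of at least 1 CPM the medians of DKO over control were -0.11 at CT16 and 0.16 at CT4, and that between times in DKO mice was -0.30. The score for neighbouring nuclei was -1.33 to 0.872 in the DKO CT16 libraries (median -0.726), -0.645 to 0.854 in the control CT16 libraries (median 0.0229), 0.593 to 1.05 in the DKO CT4 libraries (median 0.816) and -0.912 to 0.647 in the control CT4 libraries (median -0.547). Between genotypes at each time and between times in DKO mice, the group medians of this score differed in the same direction as the axis. In controls the median score was higher at CT16, and the axis median between times was 0.00. With this score and the myelin score as covariates, 6 of 9 were above 0 between genotypes at CT4 (median 0.08) and 8 of 9 below 0 between times in DKO mice (median -0.31). At CT4 the score for neighbouring nuclei overlapped between genotypes (lowest DKO 0.593, highest control 0.647), whereas some other scores separated them. That for ependyma and tanycytes was 0.348 to 0.667 in DKO and -0.432 to 0.304 in control libraries, that for choroid plexus 0.264 to 0.474 in DKO and -0.264 to 0.145 in control libraries, and that for SCN identity -0.538 to -0.419 in DKO and -0.15 to 0.748 in control libraries. Those for astrocytes and mural cells were lower in all DKO than in all control libraries at CT4. The part of these scores in the R-spondin axis was not tested.

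**Figure D4:**
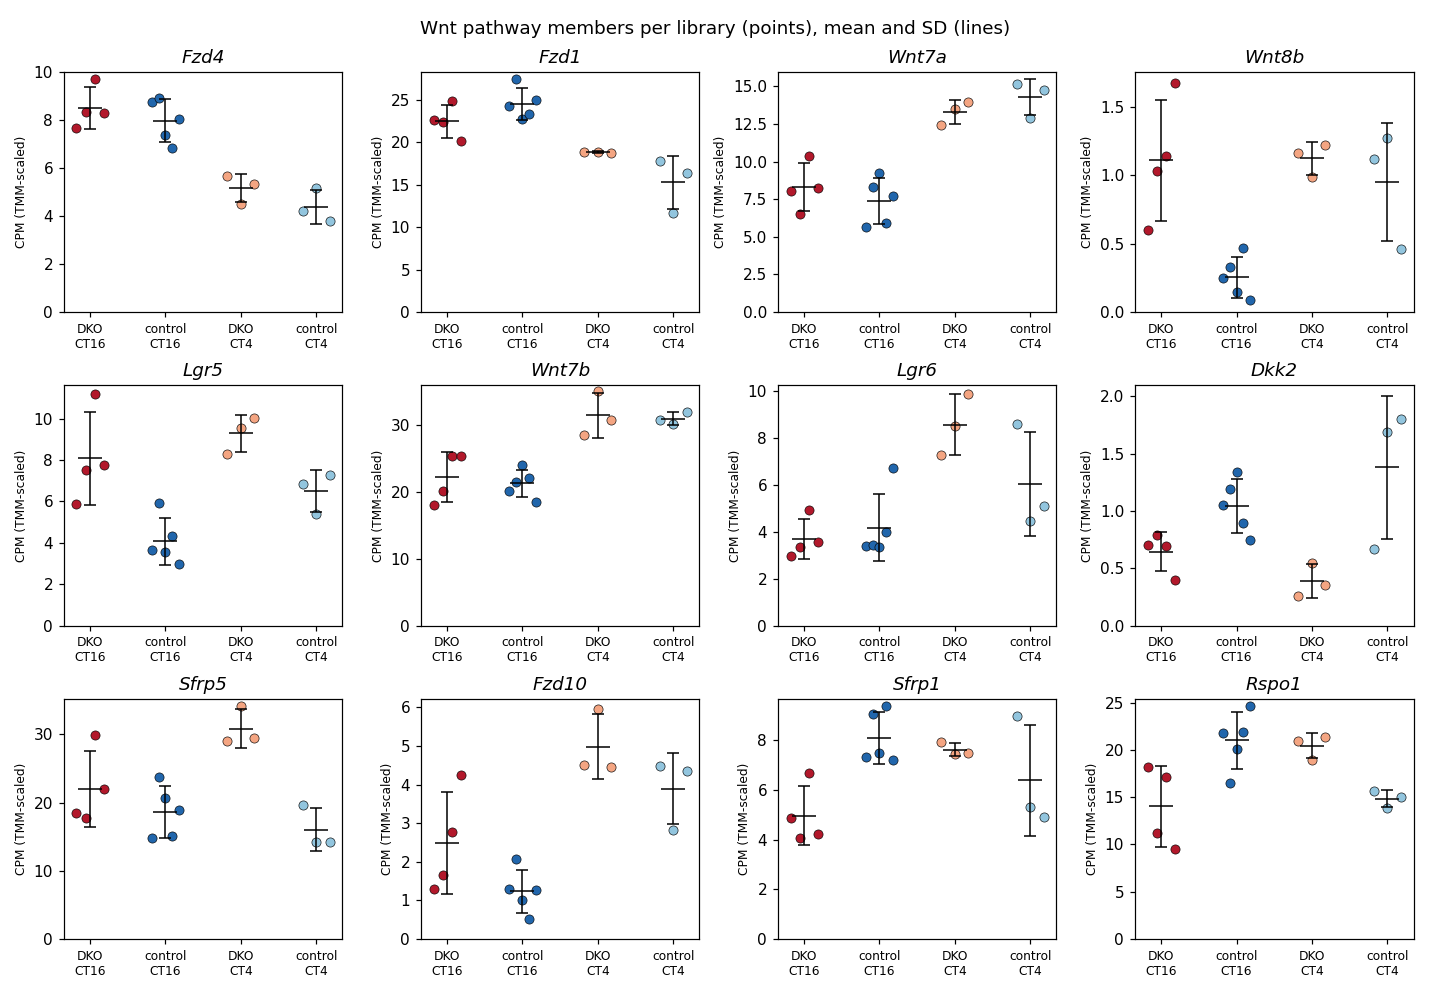
CPM (y axis, linear from 0) of 12 members in each library, grouped as DKO CT16, control CT16, DKO CT4 and control CT4, with points for libraries and lines for the mean and SD. Fzd4 and Wnt7a separate the 2 times in both genotypes, Wnt8b is low in the control CT16 libraries (0.0878 to 0.468 CPM), and Rspo1 is higher in all DKO than in all control libraries at CT4 but not at CT16.

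Sfrp1, a secreted Wnt-binding antagonist, was lower in DKO mice at CT16. It had 4.89, 4.08, 6.67 and 4.25 CPM in the DKO CT16 libraries, 7.32, 9.08, 7.50, 9.39 and 7.20 CPM in the control CT16 libraries, 7.92, 7.46 and 7.51 CPM in the DKO CT4 libraries and 8.97, 5.30 and 4.93 CPM in the control CT4 libraries. All DKO libraries were below all control libraries at CT16, and the genotypes overlapped at CT4. Relative to control, the log2 fold change in DKO mice was -0.70 ± 0.18 at CT16 and 0.25 ± 0.21 at CT4 (edgeR quasi-likelihood test, adjusted p = 0.0318 and 0.639), with an interaction of -0.95 ± 0.28 (adjusted p = 0.155). The call was lost without DKO CT16 replicate 2 or 4 or control CT16 replicate 2, 3 or 4 (-0.73 to -0.62, adjusted p = 0.0517 to 0.119). It was also lost with a replicate block (-0.75 ± 0.20, adjusted p = 0.0778) and with the endothelium score as covariate (-0.62 ± 0.16, adjusted p = 0.0536). Under the 3-library exclusion the difference was -0.85 ± 0.15 at CT16 (adjusted p = 0.00335), and the interaction, -1.43 ± 0.21, was then called (adjusted p = 0.00501). The score for neighbouring nuclei did not overlap between genotypes at either time under that exclusion.

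Dkk2, which binds Lrp5 and Lrp6, was lower in DKO mice at CT4. It had 0.703, 0.787, 0.693 and 0.395 CPM in the DKO CT16 libraries, 1.05, 1.19, 1.34, 0.895 and 0.746 CPM in the control CT16 libraries, 0.254, 0.548 and 0.357 CPM in the DKO CT4 libraries and 0.665, 1.68 and 1.80 CPM in the control CT4 libraries. The genotypes did not overlap at CT4 and overlapped in 1 pair of libraries at CT16. These are 10 to 82 counts per library. DKO over control was -0.68 ± 0.32 at CT16 and -1.83 ± 0.42 at CT4 (edgeR quasi-likelihood test, adjusted p = 0.248 and 0.0454). The call at CT4 was lost without DKO CT16 replicate 2, any of control CT16 replicates 1 to 4, any DKO CT4 library or control CT4 replicate 2 or 3 (-2.17 to -1.59, adjusted p = 0.0524 to 0.203). The value under the 3-library exclusion was -2.17 ± 0.37 (adjusted p = 0.0053), and with the scores for myelin and neighbouring nuclei as covariates it was -1.37 ± 0.48 (adjusted p = 0.209).

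Sfrp5, a further Wnt-binding antagonist, had 18.5, 17.7, 29.8 and 22.0 CPM in the DKO CT16 libraries, 14.8, 23.7, 20.7, 15.1 and 19.0 CPM in the control CT16 libraries, 29.0, 34.1 and 29.4 CPM in the DKO CT4 libraries and 19.6, 14.2 and 14.2 CPM in the control CT4 libraries. At CT4 all DKO libraries were above all control libraries. DKO over control gave a log2 fold change of 0.24 at CT16 and 0.94 ± 0.22 at CT4, which just missed the threshold (edgeR quasi-likelihood test, adjusted p = 0.471 and 0.0517). DESeq2 called the difference at CT4 (0.95 ± 0.20, adjusted p = 0.000553). So did edgeR in some other settings, among them the 2 groups fitted alone (0.94 ± 0.13, adjusted p = 0.0034). With the scores for myelin and neighbouring nuclei, or for endothelium, as covariates edgeR did not call it. Under the 3-library exclusion the difference at CT4 was 1.12 ± 0.18 and was called (adjusted p = 0.0053). The score for neighbouring nuclei did not overlap between genotypes at CT4 under that exclusion. The highest Sfrp5 value of DKO CT16 and of control CT4 was in the library with that group's highest neighbouring nuclei score, whereas in control CT16 and DKO CT4 it was in another library, replicate 2 of each.

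Frzb, which also binds Wnts, was singled out after its values were seen. It had 1.91, 1.05, 5.83 and 2.39 CPM in the DKO CT16 libraries, 1.80, 4.89, 1.34, 1.46 and 15.8 CPM in the control CT16 libraries, 6.50, 7.46 and 12.0 CPM in the DKO CT4 libraries and 8.02, 1.85 and 1.74 CPM in the control CT4 libraries. The highest library of DKO CT16, control CT16 and control CT4 was in each case the library with the highest neighbouring nuclei score. In DKO CT4 the highest was replicate 3, which had the lowest score of its group (0.593). No difference of Frzb was called with all libraries. Between genotypes Sfrp2 had a log2 fold change of -0.57 at CT16 and -0.55 at CT4 (edgeR quasi-likelihood test, adjusted p = 0.0757 and 0.227). Dkk3, Sfrp4 and Wif1 were not called in any comparison, and Dkk3 stayed between 73.4 and 91.3 CPM over all libraries.

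The 7 intracellular members were not called in any comparison with all libraries. Their log2 fold change of DKO over control was below 0 for 4 at CT16 (median -0.01) and for 7 at CT4 (median -0.10). Axin2, a negative regulator and widely used target gene of beta-catenin signalling, had 25.9 to 28.7 CPM in DKO and 27.3 to 30.8 CPM in control libraries at CT16, and 28.8 to 32.9 CPM in DKO and 29.4 to 33.3 CPM in control libraries at CT4. Its log2 fold change of DKO over control was -0.08 ± 0.06 at CT16 and -0.03 ± 0.07 at CT4, and that of CT16 over CT4 was -0.18 ± 0.07 in DKO mice and -0.13 ± 0.06 in controls (edgeR quasi-likelihood test, adjusted p = 0.172 to 0.881). Ctnnb1 had -0.01 at CT16 and -0.21 ± 0.07 at CT4 between genotypes (adjusted p = 0.92 and 0.148). Under the 3-library exclusion the difference of Ctnnb1 at CT4 was -0.26 ± 0.05 and was called (adjusted p = 0.0155), as was that between times in DKO mice (0.23 ± 0.05, adjusted p = 0.0168). Of the transcription factors, Tcf7l2 had 15.9, Tcf7l1 5.91, Lef1 2.64 and Tcf7 2.06 CPM on average, and the largest difference among them in size was that of Tcf7l2 between times in controls (-0.52, adjusted p = 0.107). Exons of Tcf7l1 overlap Gm15401 on the opposite strand, which averaged 0.142 CPM.

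Of 73 further genes of the pathway on 6 lists, 70 were tested. Between genotypes 2 were called higher and 0 lower at CT16, and 0 in either direction at CT4. Between times 3 were called higher and 1 lower in DKO mice, and 5 higher and 2 lower in controls. Of all genes, 4.66% were called between genotypes at CT16 and 1.28% at CT4. Between times 1.8% were called in DKO mice and 4.21% in controls. The 3 genes of Wnt secretion and processing, the 18 of the destruction complex and Dishevelled and the 10 of planar cell polarity held 0 calls in all 5 comparisons, interaction included. Among 15 tested co-receptors and receptor modulators 1 was called, Kremen1, a Dkk co-receptor, with a log2 fold change of 0.50 ± 0.12 for DKO over control at CT16 (edgeR quasi-likelihood test, adjusted p = 0.0261). Among 12 nuclear cofactors the co-repressor Tle1 was called between times, at 0.34 ± 0.06 in DKO mice and 0.24 ± 0.06 in controls (adjusted p = 0.00685 and 0.0267).

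Of 15 tested target genes of beta-catenin outside the members, 1 was called between genotypes at CT16, against 4.66% of all genes. Between times 3 were called in DKO mice, against 1.8% of all genes, and 6 in controls, against 4.21%. The called genes of smallest p included 3 that brain endothelium is known to express. Slc2a1, the glucose transporter of the barrier, had 169 to 209 CPM in DKO and 176 to 201 CPM in control libraries at CT16, and 111 to 117 CPM in DKO and 114 to 119 CPM in control libraries at CT4. Mfsd2a, a lipid transporter, had 48.7 to 69.6 CPM in DKO and 61.0 to 72.0 CPM in control libraries at CT16, and 26.6 to 33.4 CPM in DKO and 25.7 to 29.0 CPM in control libraries at CT4. Both rose at CT16 without overlap between times, by 0.77 ± 0.07 in DKO mice and 0.71 ± 0.06 in controls for Slc2a1 and by 0.93 ± 0.11 in DKO mice and 1.27 ± 0.11 in controls for Mfsd2a (edgeR quasi-likelihood test, adjusted p at most 0.000537).

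The tight junction gene Cldn5 fell at CT16. It had 11.7 to 17.3 CPM in DKO and 13.2 to 17.5 CPM in control libraries at CT16, and 23.6 to 28.1 CPM in DKO and 26.8 to 34.0 CPM in control libraries at CT4. The log2 fold change for CT16 over CT4 was -0.83 ± 0.13 in DKO mice and -1.04 ± 0.12 in controls (edgeR quasi-likelihood test, adjusted p = 0.00291 and 0.000175). Genes on this list thus moved in both directions between times. The summed level of 12 endothelial markers was 170 to 201 CPM in DKO and 178 to 208 CPM in control libraries at CT16, and 183 to 192 CPM in DKO and 188 to 217 CPM in control libraries at CT4, so it overlapped between the times in both genotypes. Id2, which encodes an inhibitor of basic helix-loop-helix factors, had 67.2 to 102 CPM in DKO and 33.9 to 42.4 CPM in control libraries at CT16, and 73.2 to 85.4 CPM in DKO and 51.9 to 56.1 CPM in control libraries at CT4. DKO over control was 1.10 ± 0.10 for Id2 at CT16 (edgeR quasi-likelihood test, adjusted p = 1.38e-05).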

How the data were processed

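The authors deposited 1 table of raw counts, which are whole and not normalized, together with each gene's exon coordinates and exonic length, per the file headers. STAR, featureCounts and DESeq2 were used with build mm10, per the submitters' processing notes; their versions, the annotation and the strand setting were not given in the sources used here. A read that counts for overlapping genes on opposite strands could therefore be assigned to either.

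Tests used edgeR 4.0.16 (R 4.3.3) on the 16910 of 24419 genes that filterByExpr kept for the 4 groups. TMM factors were used, and 1 model with 4 group means was fitted to all 15 libraries (11 residual degrees of freedom) with the robust quasi-likelihood test. The 4 pairwise contrasts and the interaction were adjusted by Benjamini-Hochberg over all tested genes. Printed CPM are TMM-scaled, except those of the membership rule and the marker sums, which use column totals; scores use log2 CPM with a prior count of 2. Within-group library pairs correlated at 0.9803 to 0.9899 with a chi-square per degree of freedom of 6.554 to 126.6, so none were duplicates. Members named with every library's value were those called in any contrast, filled to 12 by smallest p. Of each other pathway list, up to 4 called genes of smallest p were named. The members and lists were chosen with earlier results of these data known.

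Other settings were RLE factors, no filter, a mean of at least 1 CPM, only the 2 groups compared, a replicate block, score covariates, DESeq2 1.42.0, and each library left out; exclusions of 3 and 4 libraries were added after the data were seen. The steps were tested on simulated counts. Promoter windows came from RefSeq GRCm38.p6, and figures from matplotlib 3.10.9.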

Additional observations from a re-analysis of the deposited data

Results flagged for a closer look

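Each member was examined in the DKO CT16 and the control CT16 group for a library far from the others of its group by Dixon's criterion. Of 92 groups examined, 5 had such a library, and chance alone gives about 1 in 20. All of them were control CT16 libraries. Fzd7 had 8.00 CPM in replicate 2, against 5.30 to 5.59 CPM in the other 4. Wnt5a had 17.5 CPM in the same library, against 11.8 to 13.1 CPM in the others. Lgr6 had 6.72 CPM in replicate 5, the library with the highest neighbouring nuclei score of its group (0.854), against 3.34 to 4.01 CPM in the others. Fzd9 had 9.99 CPM in replicate 1, against 8.36 to 8.62 CPM in the others. Tcf7l1 had 5.52 CPM in replicate 3, against 6.04 to 6.24 CPM in the others.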

How the results depend on the processing

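Of 14 calls of named members, 3 held in all other settings tried, those of Fzd4, Fzd1 and Wnt7a between times in controls. The other 11 were lost in 1 to 14 settings, and no named member changed direction where it was called. Counts of called members moved as follows. At CT4 between genotypes, where 1 member was called, the count was 5 with the compared groups alone, 0 with myelin and neighbouring nuclei scores and 0 with the endothelium score as covariates, 2 with DESeq2, 4 under the 3-library exclusion and 8 without these 3 and control CT16 replicate 5. At CT16, where 3 were called, it was 6 with the myelin and nuclei scores and 6 with DESeq2. Between times in controls, where 6 were called, both of these settings gave 10. Between times in DKO mice, where 4 were called, it was 1 with the compared groups alone, 2 with the myelin and nuclei scores, 2 with the endothelium score, 10 without 3 and 13 without 4 libraries. For the interaction, where 0 were called, it was 2 with DESeq2, 5 without 3 and 6 without 4 libraries. With 1 library left out, the counts of members ran from 0 to 2 at CT4, from 2 to 6 at CT16, from 4 to 9 between times in controls, from 0 to 11 between times in DKO mice and from 0 to 3 for the interaction; the upper ends at CT16, in DKO mice and for the interaction came without DKO CT16 replicate 3.

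Counts over all genes were 217 at CT4, 788 at CT16, 712 between times in controls, 304 between times in DKO mice and 2 for the interaction. With DESeq2 they were 591, 1283, 1317, 881 and 367. Without 3 libraries they were 606 at CT4, 419 at CT16, 1184 in DKO mice and 423 for the interaction, and without 4 they were 862, 398, 1413 and 455. The compared groups alone gave 828 at CT4, 368 at CT16 and 47 in DKO mice. The endothelium score gave 73 at CT4 and 7 for the interaction, the myelin and nuclei scores 1315 in controls and 18 for the interaction, and no filter 6 for the interaction. With 1 library left out the counts ran from 16 to 328, 380 to 1318, 235 to 1057, 103 to 1461 and 1 to 298. The cause of these shifts was not tested.

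No pairing by replicate number was assumed in the main fit. Deviations of same-numbered libraries correlated at -0.184 to 0.138 over the 4 pairwise comparisons. Between times in DKO mice they correlated at 0.0503 to 0.1, above all differently numbered pairs (-0.0683 to 0.0413). Between genotypes at CT4 they correlated at -0.0647 to -0.0218, below all differently numbered pairs (-0.0123 to 0.0595). These values do not settle whether the numbers pair the samples. With the replicate block the counts over all genes were 104, 503, 379, 159 and 1. Dkk2 and Wnt8b were not tested at a mean of at least 1 CPM. Their 4 to 82 counts per library, and 3 to 5 pools per group, limit what could be detected.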
